A study of Mus musculus with 2 samples.

Results

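The transforming growth factor β (TGF-β) and bone morphogenetic protein (BMP) ligands and the Id genes were followed as a set of 10 genes of the 55450 in the feature table. They were chosen by gene symbol: the ligands Tgfb1, Tgfb2, Tgfb3, Bmp2, Bmp4 and Inhba, the antagonist Grem1, and Id1, Id2 and Id3. They were measured by single-cell RNA sequencing of EMT6 tumors, a mouse mammary carcinoma line grown under the skin of BALB/c mice. The Olaparib + LLY-283 group received the PARP inhibitor Olaparib at 50 mg/kg daily and the PRMT5 inhibitor LLY-283 at 50 mg/kg, LLY-283 for 3 days on and 4 days off. The Combo group received both drugs and an anti-PD-1 antibody, 200 µg every 3 days. Each group is 1 library made from tumors of 3 mice pooled, so both libraries carry both inhibitors and untreated tumors are not analysed here. An effect of the antibody cannot be told apart from a difference between these pools or libraries. Nothing below has a p-value for that reason.

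TGF-β proteins and activins, the dimers made from Inhba, bind receptor kinases that phosphorylate SMAD2 and SMAD3, while BMPs act through SMAD1, SMAD5 and SMAD9. Gremlin, the product of Grem1, binds BMP proteins outside the cell and keeps them from their receptors. Id1, Id2 and Id3 are helix-loop-helix proteins without a DNA-binding domain that hold E proteins away from DNA, and Id1 and Id3 are well known as direct targets of BMP signaling. In tumors these ligands are made by cancer cells, fibroblasts, vessels and myeloid cells alike, so the first question is which cells hold which messenger RNA.

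Upstream sequence was taken from the RefSeq promoter table of GRCm38.p6, which matched 7 of the 10 genes, all but Tgfb3, Bmp2 and Id1. The 4 stretches below are shown for genes with unlike patterns over the cells: Tgfb1 and Id2 were high in macrophages, Bmp4 in tumor cells and Grem1 in a few fibroblasts. Each runs 5′ to 3′ on the strand of the gene and ends at the base before the RefSeq start, except that of Id2. Capitals mark GGCGCC, an element known from BMP-responsive promoters, GTCTG, a form of the SMAD box, and GGGCGG, the GC box, on either strand.
Tgfb1, chr7:25686752-25687001, plus strand: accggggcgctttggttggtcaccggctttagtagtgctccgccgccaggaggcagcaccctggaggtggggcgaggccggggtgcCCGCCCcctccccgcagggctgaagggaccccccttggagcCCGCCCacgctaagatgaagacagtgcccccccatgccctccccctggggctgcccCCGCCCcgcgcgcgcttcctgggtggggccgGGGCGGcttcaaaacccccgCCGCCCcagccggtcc
Bmp4, chr14:46390670-46390919, minus strand: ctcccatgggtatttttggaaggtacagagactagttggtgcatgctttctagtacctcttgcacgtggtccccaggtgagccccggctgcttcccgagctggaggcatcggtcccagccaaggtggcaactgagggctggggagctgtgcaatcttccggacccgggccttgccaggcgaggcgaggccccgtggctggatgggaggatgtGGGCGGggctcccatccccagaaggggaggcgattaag
Grem1, chr2:113758649-113758898, minus strand: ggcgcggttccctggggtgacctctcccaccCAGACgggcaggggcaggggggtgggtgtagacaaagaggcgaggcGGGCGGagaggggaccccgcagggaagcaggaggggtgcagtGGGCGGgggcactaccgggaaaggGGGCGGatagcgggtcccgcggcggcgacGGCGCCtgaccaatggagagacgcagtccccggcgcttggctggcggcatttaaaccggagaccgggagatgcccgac
Id2, chr12:25096254-25096342, minus strand: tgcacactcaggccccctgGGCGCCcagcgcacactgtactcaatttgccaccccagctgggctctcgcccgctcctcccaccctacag
The Id2 stretch holds the 89 of the 250 upstream bases that lie outside GENCODE exons, in an intron of a longer Id2 transcript. Over the 250 bases, Tgfb1 held 5 GC boxes, Grem1 held 3 and Bmp4 held 1. GGCGCC stood in Grem1, 78 bases before the start, and in Id2, 231 bases before it. It was in 9.59% of 32851 promoters of this length, GTCTG in 42.2% and GGGCGG in 32.7%. The motifs do not overlap each other in the stretches shown. These matches describe letters only.

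Of the 2 libraries, Olaparib + LLY-283 had 16115 cells and 147214934 unique molecular identifiers (UMIs), the count of captured transcripts, and the Combo library 7542 cells and 162522700 UMIs. With under 20% mitochondrial UMIs required, 86 and 1586 cells were left out, in that order. Cells were put into classes by marker UMIs, which gave 5630 and 2050 tumor cells (Epcam, Krt8, Krt18), 200 and 65 fibroblasts (Col3a1, Pdgfra and others), 32 and 10 endothelial cells (Pecam1, Cdh5 and others), 1040 and 724 macrophages (Csf1r, C1qa and others) and 660 and 1204 neutrophils (Csf3r, S100a8 and others). Macrophages and neutrophils are together the myeloid cells. Cells of 2 gates, 1.38% and 2.74% of those kept, entered no class, and 8166 and 1651 cells passed no gate. The 39 cell barcodes that both libraries hold are a share of 23618 and were kept. Tumor cells carried a median of 11548.5 UMIs under Olaparib + LLY-283 and 51250 in Combo, and macrophages 2286.5 and 10339.5, so a gene at one level was found in more Combo cells. Levels are therefore UMIs summed over a class scaled to the class total, as counts per 1e+06 UMIs (CPM), with exact Poisson 95% intervals in brackets. They cover counting error only, not the spread between cells or between mice, and are too narrow where few cells hold most UMIs of a gene. Where a pair of values is given with no library named, Olaparib + LLY-283 comes first and Combo second.

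The cells of no gate were close to tumor cells for most of these genes. Exceptions were Id2 in Combo, at 43.2 CPM [41, 45.4] against 25.2 in tumor cells, and Grem1 under Olaparib + LLY-283, at 0.842 against 0.0906. The Bmp4 level of the cells of no gate was 84.5 CPM under Olaparib + LLY-283 and 73.5 in Combo, their Inhba level 154 and 138, and their Id3 level 214 and 226. Krt8 was at 604 and 467 CPM in them but Krt18 at 2.38 and 1.94, so the gate, which asks for UMIs of 2 different tumor markers, set them apart. Epcam itself was low even in the tumor gate, at 5.93 and 4.05 CPM.

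Positions are those of whole protein-coding genes in mm10, from GENCODE. Tgfb1, on chr7:25687002-25705077, encodes the main circulating and immune form of TGF-β. Its level was 46.8 CPM [45.3, 48.4] in Olaparib + LLY-283 tumor cells and 36.3 [35.2, 37.4] in those of Combo. In macrophages it was 142 [129, 155] and 186 [177, 195], which was 3.03-fold and 5.13-fold above the tumor cells of the same library. Endothelial cells held 184 CPM [119, 271] and 397 [287, 534], from 25 and 43 UMIs. Fibroblasts were at 52.6 and 63 CPM and neutrophils at 78.9 and 82.6. Endothelial cells and macrophages of the Olaparib + LLY-283 library do not differ beyond these intervals, and in Combo endothelial cells stood above macrophages. After each cell was thinned to 1000 UMIs, Tgfb1 was found in 14.7% of 898 macrophages and 16.3% of 688, against 4.43% of 5623 tumor cells and 3.24% of 2039.

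Tgfb2 and Tgfb3, on chr1:186622792-186705989 and chr12:86056745-86079041, encode the other two TGF-β forms, known for roles in development and in mesenchyme. Tgfb2 was at 23.4 CPM [22.4, 24.6] in Olaparib + LLY-283 tumor cells and 21.3 [20.5, 22.2] in Combo. Fibroblasts held 8 UMIs of it (8.59 CPM [3.71, 16.9]) in the former library and 42 (35.3 [25.4, 47.7]) in Combo. Macrophages were at 10.1 and 2.36 CPM and neutrophils at 8.77 and 3.29, both below tumor cells in both libraries. Tgfb3 differed less between classes. It was at 13.5 and 12.4 CPM in tumor cells, 13.4 and 9.92 in macrophages, and 8.59 and 21 in fibroblasts from 8 and 25 UMIs. Endothelial cells held no UMI of Tgfb3 in either library, which allows up to 27.1 and 34 CPM.

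**Figure D1:**
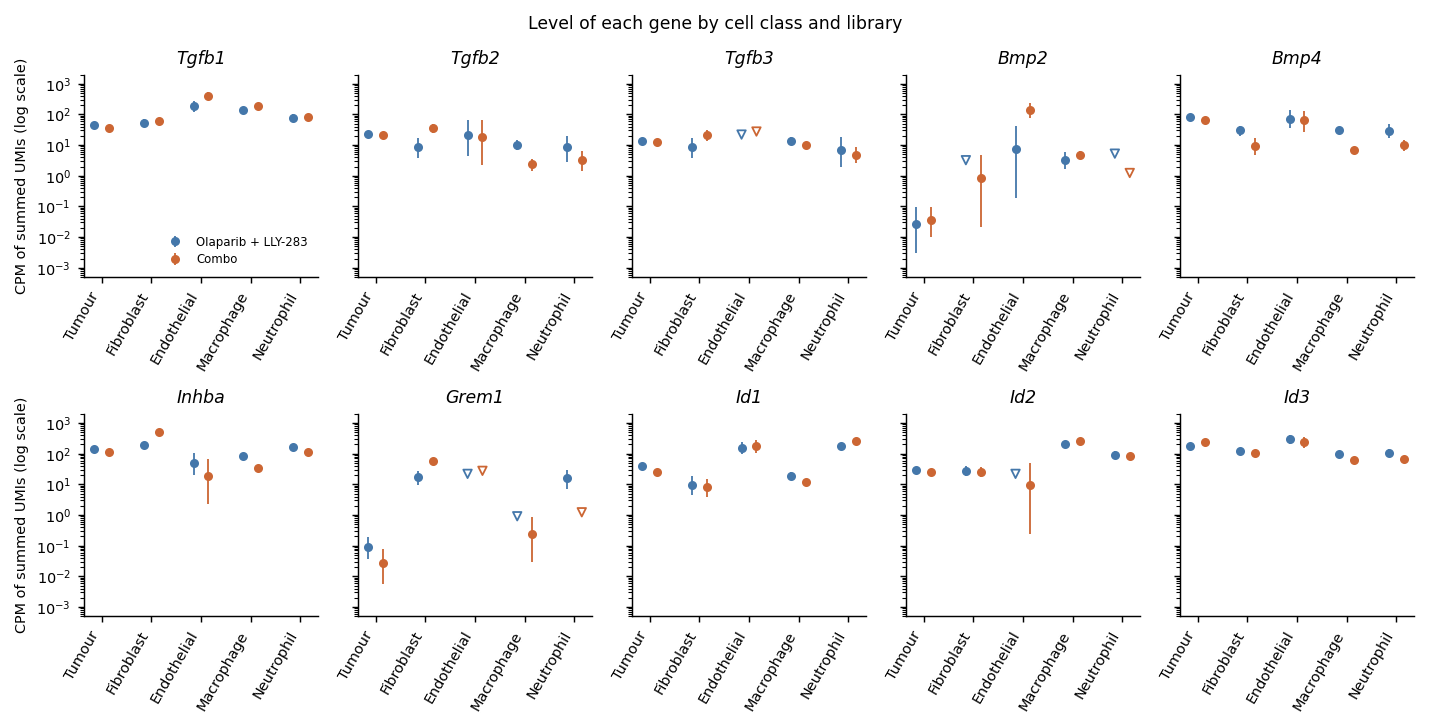
CPM of the 10 genes (log axis) in 5 cell classes, in the Olaparib + LLY-283 library (blue) and the Combo library (orange), 1 library each. Bars are exact Poisson 95% intervals and open triangles mark the level of 3 UMIs where none was counted. Id2 stands highest in macrophages, Id1 in neutrophils and endothelial cells, and Grem1 in fibroblasts.

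Bmp4, on chr14:46383520-46390669, encodes a BMP that patterns mesoderm and is made by many carcinomas. It was a tumor cell gene here, with 6281 UMIs and 81.3 CPM [79.3, 83.4] under Olaparib + LLY-283 and 7262 UMIs and 65.6 CPM [64.1, 67.1] in Combo. Endothelial cells were within counting error of that, at 73.5 [35.2, 135] and 64.6 [26, 133] from 10 and 7 UMIs. Fibroblasts (30.1 and 9.24 CPM), macrophages (30.2 and 6.85) and neutrophils (29.8 and 9.86) all held less than tumor cells, by 2.71-fold, 2.7-fold and 2.73-fold under Olaparib + LLY-283 and 7.1-fold, 9.57-fold and 6.65-fold in Combo. In summed UMIs all 3 of these classes were lower in Combo, as was Krt8. With each cell weighted alike, fibroblast Bmp4 was higher in Combo, at 21.2 and 41 CPM. That mean leans on shallow cells: in Combo, single Bmp4 UMIs stood in fibroblasts of 1434 and 611 UMIs in all. Krt18 in fibroblasts was at 7.51 and 9.24 CPM, where 3 UMIs make 3.22 and 2.52 CPM, so these levels rest on few UMIs.

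Bmp2, on chr2:133552159-133562885, encodes a close relative of Bmp4. Tumor cells held 2 UMIs of it under Olaparib + LLY-283 and 4 in Combo among at least 77228452 UMIs of these cells, and neutrophils held none. Macrophages held 11 UMIs (3.35 CPM [1.67, 6]) and 41 (4.84 [3.48, 6.57]), spread over 7 and 24 cells. In Combo, 15 UMIs stood in 1 of the 10 endothelial cells, and that single cell makes the endothelial level of 138 CPM; the Olaparib + LLY-283 endothelial cells held 1 UMI. Bmp2 was thus detected in few cells, mostly macrophages, and not as a gene of the tumor cells, where Bmp4 was found.

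Inhba, on chr13:16011851-16031621, encodes the βA chain of activin A. It was at 147 CPM [144, 149] in Olaparib + LLY-283 tumor cells and 111 [109, 113] in Combo, and in neutrophils at 163 [132, 200] and 111 [98.5, 125]. Macrophages were lower, at 82.6 [73, 93] and 33.3 [29.5, 37.4]. Endothelial cells were at 51.4 and 18.4 CPM from 7 and 2 UMIs. Fibroblasts were at 194 [167, 225] and 498 [459, 540], above all other classes in Combo and within the interval of neutrophils in the other library.

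The fibroblast UMIs of Inhba stood in few cells. The 5 cells with the most held 56.9% of them in the Olaparib + LLY-283 library, with 13 to 26 UMIs a cell, and 78.9% in Combo, with 41 to 153. Without those 5 cells the level was 86.6 CPM in the former and 119 in Combo, and the difference between the libraries was under 2-fold. The 119 stands beside 111 in all Combo tumor cells and 111 in all Combo neutrophils, so the high Combo fibroblast level rests on those 5 cells. In tumor cells, which are far more numerous, the top 5 held 1.28% and 2.77%. At an equal share of cells, the top 5% held 76.2% and 60.9% in fibroblasts and 26.7% and 26.3% in tumor cells. After thinning, the variance of the Inhba count over its mean, which is 1 for Poisson counts, was 4.06 and 2.44 in fibroblasts. It was 2.73 and 1.87 in macrophages, 1.26 and 1.19 in tumor cells, and 3.92 in Combo neutrophils, where 1 cell kept 17 UMIs. For Tgfb1 in tumor cells it was 1.01 and 0.997.

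Grem1, on chr2:113746164-113758646, encodes gremlin, a BMP antagonist of mesenchymal cells. It was at 17.2 CPM [9.82, 27.9] in fibroblasts of the Olaparib + LLY-283 library and 57.9 [45.1, 73.3] in Combo, all from 4 of 200 cells and 5 of 65. These cells held 8, 5, 2 and 1 UMIs in the former library and 31, 24, 7, 5 and 2 in Combo. All 9 also held Inhba, from 4 to 17 UMIs in the former and from 1 to 93 in Combo, whereas Inhba was found in 36 of 200 fibroblasts and 25 of 65. This contrast is not at equal depth. The 9 cells had 4418 to 13804 UMIs in the former, against a fibroblast median of 3894. In Combo they had 11246 to 30149, against 20179. The 9 passed the fibroblast gate with 111.9 to 333 marker UMIs per 10000 and were counted after the pattern was seen. Outside fibroblasts, Grem1 had 7 and 3 UMIs in tumor cells, none in endothelial cells, 0 and 2 in macrophages, and 9 in the neutrophil gate of the Olaparib + LLY-283 library, all in 1 cell. The cells of no gate held 53 and 3, in 16 and 3 cells, and these cells were not looked at for Inhba.

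**Figure D2:**
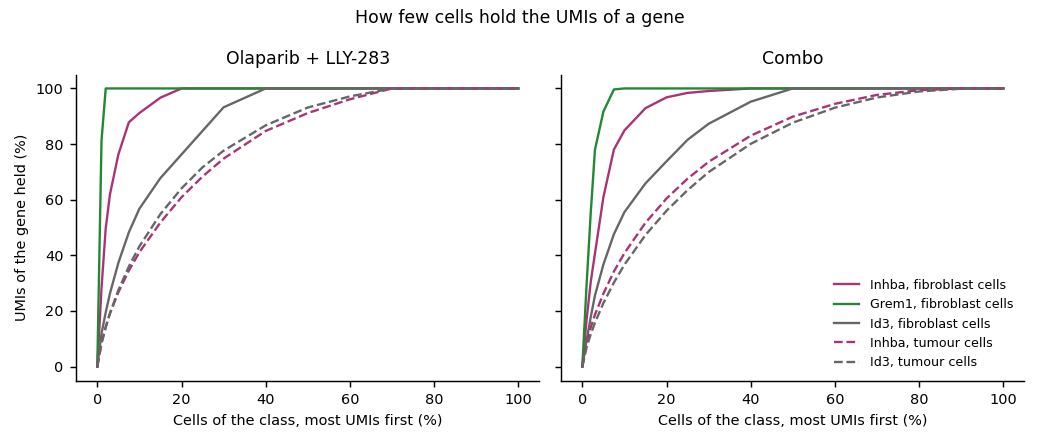
Share of a gene's UMIs (%) held by the cells of a class, ordered from most to fewest UMIs (x axis, % of cells), in each library; solid lines are fibroblasts and dashed lines tumor cells. Grem1 and Inhba rise steeply in fibroblasts, while Inhba and Id3 in tumor cells are spread over most cells.

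Id1, on chr2:152736251-152737410, was highest in neutrophils and endothelial cells. Its neutrophil level was 174 CPM [141, 211] under Olaparib + LLY-283 and 253 [234, 274] in Combo, which was 4.25-fold and 10.3-fold above tumor cells. Endothelial cells were at 154 [95.5, 236] and 175 [106, 274] from 21 and 19 UMIs, and 5 of the 10 Combo cells held all 19. Tumor cells were at 40.8 [39.4, 42.3] and 24.5 [23.6, 25.5], macrophages at 19.5 and 12.1, and fibroblasts at 9.66 and 8.4. In summed UMIs macrophages and fibroblasts were below tumor cells in both libraries, the fibroblasts from 9 and 10 UMIs. With each cell weighted alike, Combo fibroblasts were at 32.9 CPM against 24.4 in tumor cells, the other way round. Under Olaparib + LLY-283 that mean was 7.21 against 39.2. Neutrophils are shallow cells, with a median of 671 UMIs under Olaparib + LLY-283 and 1953.5 in Combo, and only 92 of 660 in the former had the 1000 UMIs that thinning needs, against 1112 of 1204. Of those 92, 6.52% [2.43, 13.7] kept an Id1 UMI, and 17.2% [15, 19.5] of the 1112 in Combo. Most neutrophils of the 2 libraries also lay in different clusters. The level in these 92 deeper cells was 62.7 CPM, which is under 2-fold above tumor cells, and in the 1112 it was 259. The 92 also held Bmp4 at 52.3 CPM, against 29.8 over all 660 and 81.3 in tumor cells.

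Id2, on chr12:25093799-25097140, was a macrophage and lymphocyte gene. Macrophages held 201 CPM [186, 217] under Olaparib + LLY-283 and 260 [249, 271] in Combo, 6.74-fold and 10.3-fold above tumor cells at 29.8 and 25.2. Neutrophils were at 93 [69.6, 122] and 84.6 [73.5, 97]. Fibroblasts did not differ from tumor cells beyond counting error, at 27.9 and 25.2. Endothelial cells held 0 and 1 UMIs, which allows up to 27.1 CPM in the former. A sixth class, 52 and 41 T and NK cells, held 479 [316, 697] and 593 [495, 704] CPM, the highest of the 6 classes. Id2 is known for its role in innate lymphoid and NK cells. At 1000 UMIs a cell, 20% and 19.3% of macrophages kept an Id2 UMI, with intervals that overlap, and 3.17% and 2.94% of tumor cells did.

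Id3, on chr4:136143497-136145755, was found in every class. Tumor cells were at 183 CPM [180, 186] under Olaparib + LLY-283 and 239 [237, 242] in Combo, and endothelial cells at 294 [210, 400] and 240 [157, 351]. Fibroblasts held 127 and 106 CPM, neutrophils 109 and 66.1, and macrophages 96.6 and 63. In the former library endothelial cells stood above tumor cells, and in Combo the intervals of these classes overlapped. None of these classes differed from tumor cells by 2-fold in both libraries. T and NK cells did, at 53.2 CPM [11, 156] and 31.9 [12.8, 65.8] from 3 and 7 UMIs. That was 3.43-fold and 7.5-fold below tumor cells.

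Id1 and Id3 differed in opposite directions in tumor cells. From the Olaparib + LLY-283 library to Combo, Id1 was 1.66-fold lower [1.58, 1.75] and Id3 1.31-fold higher [1.28, 1.34], while Id2 was 1.18-fold lower [1.12, 1.25]. In tumor cells of 10000 to 30000 UMIs, 2979 and 241 cells, Id1 was at 41.1 and 18 CPM, Id3 at 183 and 215, and Id2 at 28.6 and 47.6, so in this range Id1 was over 2-fold lower and Id2 had the opposite sign. Tgfb1, Tgfb2, Tgfb3 and Inhba, lower over all tumor cells of Combo, were not lower here, at 44.9 and 46.8, 23.4 and 24.2, 13.1 and 14.9, and 144 and 157 CPM. For each of these genes the intervals of the 2 libraries overlapped in this range. Depth was restricted and not matched, with a median of 15349 and 22129 UMIs in the range. These cells were given a common range of depth after the values had been seen. Below 10000 UMIs, in 2318 and 53 cells, Id1 was at 35.3 and 42.4 CPM and Id3 at 167 and 115, with the signs turned. No intervals were computed for these cells, so whether the turned signs exceed counting error in 53 cells was not tested. After thinning, Id1 was in 4.04% of tumor cells of the former library and 2.45% of Combo, and Id3 in 15.3% and 18.7%. Within a library the 2 genes were not strongly tied: Id3 was kept by 18.1% of the Id1-positive tumor cells against 15.2% of the rest, and in Combo by 24% against 18.6%, from 227 and 50 Id1-positive cells.

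Counted over the set, no gene of the 8 with at least 20 UMIs was 2-fold apart between the libraries in tumor cells, where 4.83% of all 16673 genes passed the same rule. In fibroblasts 5 of 8 were apart, against 5.88% of all genes: Tgfb2 (4.11-fold [1.9, 10.1]), Grem1 (3.37-fold [1.94, 6.23]), Inhba (2.56-fold [2.17, 3.04]) and Tgfb3 (2.44-fold [1.07, 6.27]) were higher in Combo and Bmp4 was 3.25-fold lower [1.57, 7.25]. Each of these calls was lost under some alternative. No share of all genes was computed for the alternatives. These calls share cells. A single Combo fibroblast held 10 of 42 UMIs of Tgfb2, 8 of 25 of Tgfb3 and 4 of 11 of Bmp4, the most of any there. It had 39137 UMIs, 14 of them Krt8, and 102.2 marker UMIs per 10000, near the limit of 100. Without the 5 top cells of each gene, 2 of the 5 genes, Tgfb2 and Bmp4, were 2-fold apart. As a mean over cells, with each cell weighted alike, Tgfb2, Inhba and Grem1 were, while Tgfb3 was at 13.9 and 13.8 CPM and Bmp4 at 21.2 and 41, higher in Combo (log2 0.95). The Bmp4 mean of Combo leans on single UMIs in cells of 1434 and 611 UMIs. Tgfb2 was under 2-fold apart with the marker limits halved and with Leiden clusters. In endothelial cells 1 of 3 was apart, Tgfb1 (2.16-fold higher in Combo [1.29, 3.69]), against 23.8% of all genes. The 10 markers of the endothelial gate were all higher in Combo too, from Plvap (1227 and 1531 CPM) to Pecam1 (661 and 1199) and Flt1 (838 and 2075). Krt8 in these cells was at 301 and 64.6 CPM. Whether Tgfb1 differed beyond the markers was not tested. In macrophages 3 of 9 were apart, against 9.84%: Bmp4 was 4.4-fold lower in Combo [3.15, 6.2], Tgfb2 4.25-fold lower [2.37, 7.82] and Inhba 2.48-fold lower [2.09, 2.94]. As a mean over the cells, with each cell weighted alike, none of these 3 was 2-fold apart. Inhba was under 2-fold apart with the highest Scrublet scores left out, and Tgfb2 and Inhba were with Leiden clusters. In neutrophils 1 of 6 was apart, Bmp4, 3.02-fold lower [1.53, 5.87], against 23.2%. Neutrophils of the 2 libraries fell mostly into different Leiden clusters, computed without these genes: one held 16 cells of Olaparib + LLY-283 and 1050 of Combo, the other 619 and 350.

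The median log2 difference of Combo from the Olaparib + LLY-283 library was -0.28 over the 8 genes in tumor cells, beside 0.06 over all genes tested. In tumor cells of 10000 to 30000 UMIs the median of the 8 was 0.09, with 6 higher in Combo and 2 lower, so its sign did not hold in this range. The range held 241 of the 2050 Combo tumor cells. Among the 6, Tgfb1, Tgfb2, Tgfb3 and Inhba had intervals that overlap between the libraries. From 30000 UMIs up, 333 and 1756 cells, Tgfb1 (45.6 and 35.7 CPM), Tgfb3 (12.6 and 12.2), Bmp4 (79.5 and 65.5) and Inhba (124 and 109) were lower in Combo. So were Id1 (46.3 and 24.8) and Id2 (28.9 and 24), while Tgfb2 (20.6 and 21.1) and Id3 (202 and 241) were higher. The median difference was 0.77 beside 0.04 in fibroblasts, 0.18 beside 0.03 in endothelial cells, -0.62 beside 0.04 in macrophages, and -0.34 beside -0.18 in neutrophils.

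**Figure D3:**
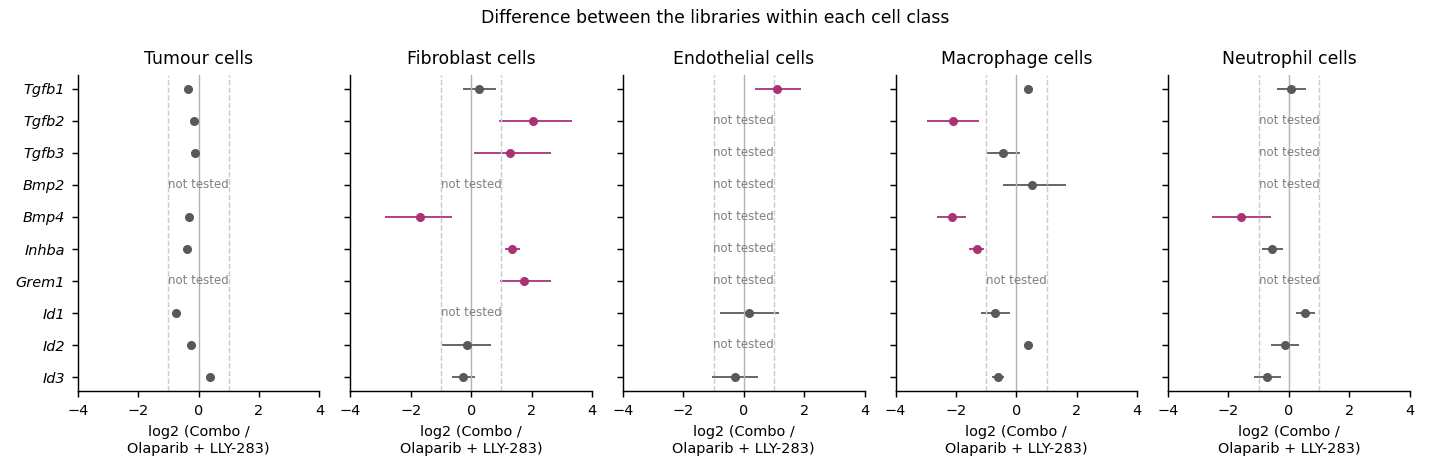
Log2 of the Combo level over the Olaparib + LLY-283 level for each gene in each class, with exact 95% counting intervals; purple points are at least 2-fold apart (dashed lines) and genes under 20 UMIs are not tested. All tested tumor cell points lie within 2-fold, and the fibroblast points fall on both sides.

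Against tumor cells of the same library, 1 gene of 9 stood at least 2-fold higher in fibroblasts in both libraries (Grem1), where 12.9% of all genes did, and 2 stood as far below (Bmp4, Id1), where 5.01% did. In endothelial cells 3 of 9 were above (Tgfb1, Bmp2, Id1), against 8.26%, and 1 below (Inhba), against 1.45%. In macrophages 3 of 9 were above (Tgfb1, Bmp2, Id2), against 14.9%, and 3 below (Tgfb2, Bmp4, Id1), against 7.13%. In neutrophils 2 of 8 were above (Id1, Id2), against 10.8%, and 2 below (Tgfb2, Bmp4), against 10.0%. The Grem1 call rests on 4 and 5 fibroblasts, and the endothelial Bmp2 call on 1 and 1 cells. The genes below tumor cells were not recounted under the alternatives, and fibroblast Id1 was not below in Combo with each cell weighted alike. In neutrophils of at least 1000 UMIs 0 genes were above tumor cells in both libraries, with Id1 at 62.7 CPM and Id2 at 52.3 under Olaparib + LLY-283 and 259 and 85.3 in Combo.

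Of the tumor markers, only Krt8 had intervals apart between the libraries over the myeloid cells together, at 294 CPM [277, 312] and 124 [117, 130]. Krt18 was at 9.6 [6.76, 13.2] and 7.52 [5.98, 9.34] there, and Epcam at 0.519 [0.0629, 1.88] and 0.826 [0.378, 1.57]. In neutrophils alone Krt18 was at 31.6 and 16 CPM, and in macrophages at 5.79 and 5.08. Krt8, a tumor marker, was in macrophages at 28.9% of its tumor cell level under Olaparib + LLY-283 and 11.3% in Combo, and in neutrophils at 45.7% and 23.1%. Krt18 was at 3.28% and 4.96% in macrophages and 17.9% and 15.7% in neutrophils, and the third marker, Epcam, had 2 and 9 UMIs over the myeloid cells. The gates leave out cells that pass for both types, which holds these keratin shares down. Bmp4 in macrophages was at 37.1% and 10.4% of its tumor level and Tgfb2 at 42.9% and 11.1%, against 28.9% and 11.3% for Krt8 and far above Krt18 under Olaparib + LLY-283, and Bmp4 in fibroblasts was at 37% and 14.1%, beside 19.4% and 10.1% for Krt8 and 4.26% and 9.02% for Krt18. Tgfb1, Id2 and neutrophil Id1 were above the tumor level. Inhba in macrophages lay between, at 56.3% and 30%. The part of tumor RNA in the differences between the libraries was not tested.

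**Figure D4:**
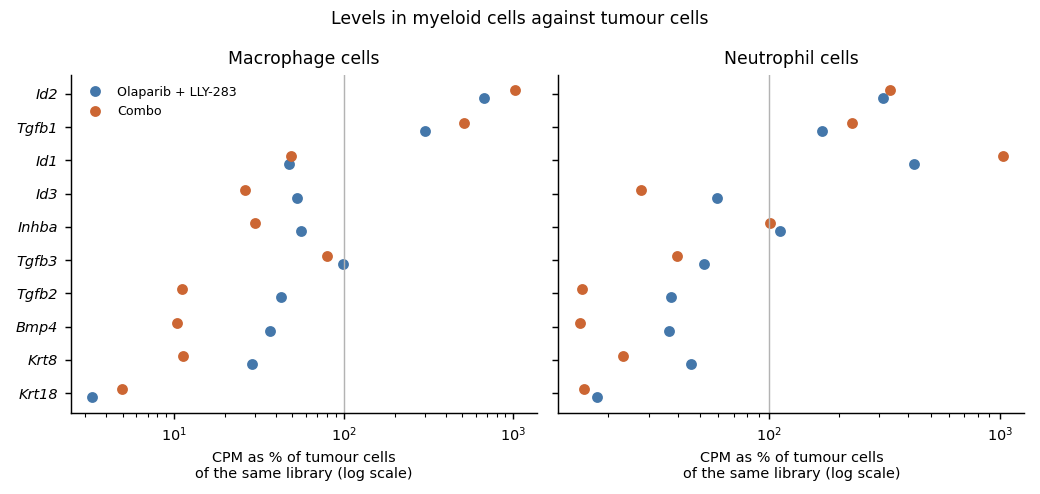
Level in macrophages and neutrophils as % of the tumor cell level of the same library (log axis), for 2 tumor keratins and 8 genes of the set, in the Olaparib + LLY-283 library (blue) and Combo (orange). In macrophages Bmp4 and Tgfb2 lie near Krt8. In neutrophils they lie between Krt18 and Krt8 under Olaparib + LLY-283 and near Krt18 in Combo. Tgfb1, Id2 and neutrophil Id1 lie right of 100%.

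With all UMIs, the share of cells with a UMI had intervals apart between the libraries in 21 of 50 pairs of gene and class, and after thinning to 1000 UMIs in 7. The same rule was not run over all genes, so whether 21 or 7 is unusual cannot be told. The 7 were Bmp4, Inhba, Id1 and Id3 in tumor cells, Inhba in macrophages, and Bmp4 and Id1 in neutrophils. They come from 1 draw. With the share expected over all draws, 5 remained, without Bmp4 in tumor cells (7.86% and 6.46%) and Inhba in macrophages (5.71% and 3.04%). Tgfb1 shows the effect of depth: 42.2% of Olaparib + LLY-283 tumor cells and 77.5% of those of Combo held a UMI, and 4.43% and 3.24% did after thinning. Inhba was in 6.46% [4.94, 8.27] of macrophages and 2.18% [1.23, 3.57], and in 7.69% [4.37, 12.4] and 21.2% [11.1, 34.7] of fibroblasts, whose intervals overlap. For comparison, Id2 was in 0 of 29 and 0 of 8 endothelial cells after thinning.

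**Figure D5:**
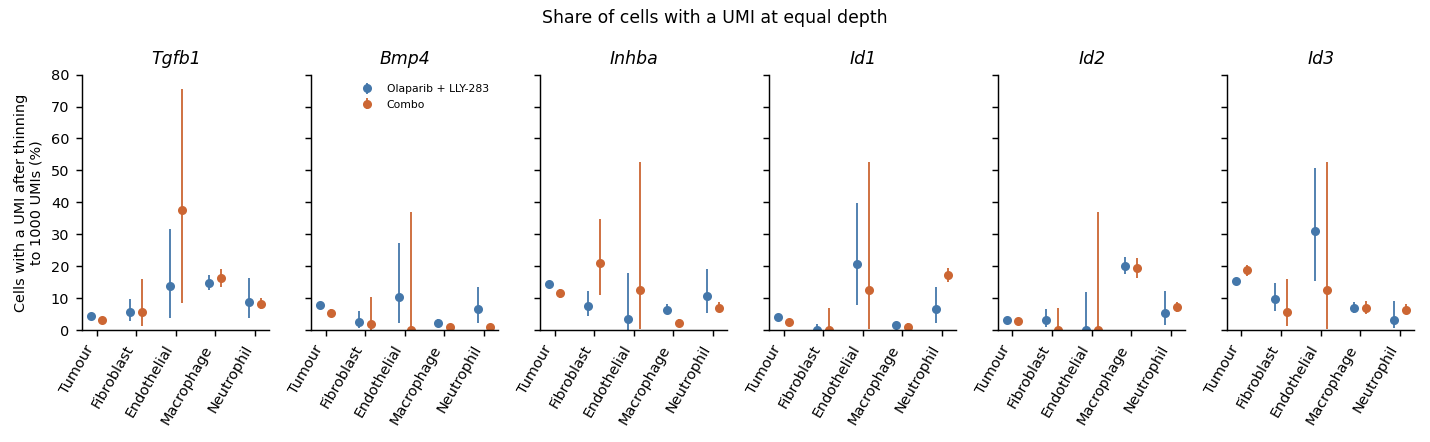
Cells with a UMI (%) after thinning each cell to 1000 UMIs, for 6 genes and 5 classes, in the Olaparib + LLY-283 library (blue) and Combo (orange); bars are exact Clopper-Pearson 95% intervals. Combo endothelial intervals are wide, since 8 cells were deep enough, and Id1 in neutrophils stands at 6.52% and 17.2%.

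The rest of the pathway was read from a list of 73 other genes. Between the libraries 3 of 55 were 2-fold apart in tumor cells, 4 of 48 in fibroblasts, 5 of 12 in endothelial cells, 10 of 46 in macrophages and 8 of 34 in neutrophils, beside 4.83%, 5.88%, 23.8%, 9.84% and 23.2% of all genes, in that order. The 10 in macrophages were all lower in Combo and 7 of the 8 in neutrophils were. The shares of all genes take both directions together, so no share of lower genes stands beside these counts. Over all genes the median log2 difference was 0.04 in macrophages and -0.18 in neutrophils. Against tumor cells, 25 of 59 were higher and 1 lower in fibroblasts, beside 12.9% and 5.01% of all genes. In endothelial cells 11 of 55 were higher and 5 lower, beside 8.26% and 1.45%. In macrophages 8 of 56 were higher and 10 lower, beside 14.9% and 7.13%, and in neutrophils 7 of 55 were higher and 9 lower, beside 10.8% and 10.0%. The higher shares in macrophages and neutrophils, and the share apart in neutrophils, are near those of all genes.

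Of 11 receptors, 8 were above tumor cells in fibroblasts, where 12.9% of all genes were. In endothelial cells 4 were, beside 8.26%, in macrophages 3, beside 14.9%, and in neutrophils 2, beside 10.8%. Tgfbr2, the type II TGF-β receptor, was at 574 and 589 CPM in fibroblasts and 66 and 79.2 in tumor cells, and Tgfbr3, betaglycan, at 214 and 213 against 26 and 29.4. Tgfbr1, the type I receptor, was at 39.7 and 38.6 CPM in fibroblasts, 39 and 56.4 in macrophages and 4.34 and 3.37 in tumor cells. Eng, the endothelial co-receptor endoglin, was at 294 and 221 CPM in endothelial cells from 40 and 24 UMIs, and at 7.32 and 7.68 in tumor cells. Acvrl1, the type I receptor for BMP9 known from vessels, was at 66.1 and 101 CPM there, at 34.1 and 43 in macrophages and at 0.479 and 0.461 in tumor cells. Bmpr2 and Bmpr1a, BMP receptors, were at 38.5 and 36.3 and at 41.7 and 38.7 CPM in tumor cells. Of 11 receptors tested none was 2-fold apart between the libraries in tumor cells, a count near the 4.83% of all genes. In macrophages Bmpr1a was lower in Combo, at 19.2 and 7.21 CPM.

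Of the other ligands, Bmp1, a protease that processes procollagen and frees TGF-β and BMPs rather than a BMP itself, was at 619 and 595 CPM in fibroblasts and 34.9 and 33.8 in tumor cells. Inhbb, the activin βB chain, was at 331 and 682 CPM in endothelial cells from 45 and 74 UMIs and at 6.28 and 5.5 in tumor cells. Bmp3, Bmp6 and Gdf10 were above tumor cells in fibroblasts as well, at 52.6 and 27.7, 19.3 and 21.8, and 5.37 and 12.6 CPM. Gdf15, a stress-induced cytokine, was at 37.1 and 26.8 CPM in tumor cells and at least 2-fold lower in fibroblasts, macrophages and neutrophils. Endothelial cells did not differ from tumor cells beyond counting error, at 22 [4.55, 64.4] and 46.1 [15, 108] from 3 and 5 UMIs. Gdf11 was at 12.3 and 12.1 in tumor cells and lower in macrophages of Combo, at 6.09 and 1.42. Bmp5, Bmp7, Bmp8b, Gdf5, Gdf6, Gdf7, Inha and Nodal had too few UMIs for either rule in all 5 classes.

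Antagonists divided by cell. Dcn, decorin, which binds TGF-β in the matrix, was at 4060 and 4040 CPM in fibroblasts and 67.5 and 119 in tumor cells, and Bmper and Chrdl1 were fibroblast genes at 39.7 and 41.1 and at 21.5 and 13.4 CPM. Fst, follistatin, which binds activins, was at 173 and 154 CPM in tumor cells. In fibroblasts it was at 157 and 345, higher in Combo, but no alternative was run for the pathway genes. In macrophages Fst was at 64.6 and 14.4 and Fstl3 at 22.2 and 6.5, lower in Combo. Among genes for storage and release of TGF-β, none of 9 was 2-fold apart in tumor cells, a count near the 4.83% of all genes. Lrrc32, which holds latent TGF-β on the cell surface, was at 48.3 and 87.3 CPM in fibroblasts and 0.647 and 0.524 in tumor cells, and Ltbp1, a latent TGF-β binding protein, at 84 and 77.2 in tumor cells. Thbs1, thrombospondin, which can free TGF-β, was at 301 and 73.8 CPM in endothelial cells from 41 and 8 UMIs.

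Of 7 target genes of TGF-β, 0 were 2-fold apart between the libraries in tumor cells, a count near the 4.83% of all genes. Pmepa1, a target that dampens the pathway, was at 353 and 233 CPM there, Smad7, the inhibitory SMAD, at 98.1 and 76.3, and Ccn2, a matrix growth factor, at 188 and 186. In macrophages Tgfbi was above tumor cells in both libraries, at 352 and 662 CPM against 25.1 and 37.5. In fibroblasts Pmepa1 was, at 707 and 840. Among BMP targets other than the Id genes, Bambi, a decoy receptor, was called higher in tumor cells of Combo from 5 and 19 UMIs, and Id4 and Hey1 had too few UMIs. Skil, a brake on SMADs, was above tumor cells in neutrophils, at 132 and 237 CPM, and Ski, its relative, in fibroblasts, macrophages and neutrophils. Smad1, a BMP SMAD, was at 140 and 341 CPM in endothelial cells and 48.4 and 48.7 in tumor cells. Tcf4, an E protein that Id proteins bind, was at 558 and 1217 CPM in endothelial cells, higher in Combo as the endothelial markers were. It stood above tumor cells, which were at 150 and 142. Tcf3 and Tcf12 did not pass the 2-fold rule in any class.

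The genes most like each member were sought over 12 points, the 6 classes in both libraries, by Pearson's r of log2(CPM + 1) among 12639 genes with at least 200 UMIs. The points share libraries and depth, and r describes them only. The first of the 3 nearest was Atp1b3 for Tgfb1 (0.955), followed by Ubl3 and Fli1, and Mex3a for Tgfb2 (0.985), followed by Actn1 and Ppme1. For Tgfb3 the 3 were Dse (0.967), Kif16b and Trerf1, for Bmp4 Celf4 (0.971), B3gnt3 and Exoc3l4, and for Inhba Fzd2 (0.96), Fam102b and Frk. For Grem1, with 106 UMIs in all, they were Crabp1 (0.982), Spon1 and Mmp3, and for Bmp2, with 75, Cebpg (0.959), Cxcl9 and Sh2b3. For Id1 they were Ptpn12 (0.918), Bcl10 and Cd9, for Id2 Hopx (0.955), Mapkapk3 and Cd52, and for Id3 Cavin2 (0.961), Cav1 and Cplx2. Within the set, Id2 and Id3 ran in opposite order over the classes (-0.887), Id1 and Id3 were at 0.569, Bmp4 and Id3 at 0.803, and Inhba and Grem1 at 0.701. Cell by cell after thinning, Id3 was kept by 16.2% of Bmp4-positive tumor cells and 15.3% of Bmp4-negative ones in the Olaparib + LLY-283 library, and by 25.7% and 18.3% in Combo, where 113 cells were Bmp4-positive.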

How the data were processed

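The authors deposited 1 matrix of UMI counts per library, not normalized. Per the labels, reads were aligned to mm10 and analysed with Seurat 4.1.0; the matrix headers name Cell Ranger 6.1.2. Gene positions are from GENCODE M21. Cells needed 200 genes and mitochondrial UMIs below 20%. A cell entered a class with UMIs of 2 different markers and marker UMIs per 10000 of at least 2 (tumor), 10 (endothelial, macrophage, T and NK) or 100 (fibroblast, neutrophil, skeletal muscle). Genes were called at 2-fold with at least 20 UMIs, with a count of 0 set to 3. The members, lists and rules were chosen with earlier results of these data known. Named were all 10 members, examples of the pathway genes past a 2-fold rule or, for receptors and targets, with at least 100 UMIs in a class, and the 3 genes most like each member; ligands with few UMIs were named after their values were seen. Doublets were left in; in an alternative the highest Scrublet scores (12.8% and 4.77% of cells) were left out, since its own threshold marked 2 and 69 cells. Cells were thinned in 1 seeded draw. Procedures were checked on simulated data. Software was Python 3.11.15 with scanpy 1.11.5, leidenalg 0.10.2, scipy 1.17.1, numpy 2.4.6, pandas 2.3.3 and matplotlib 3.10.9.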

Additional observations from a re-analysis of the deposited data

How the results depend on the processing

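The share of all genes called was computed for the main setting only, so the counts below have no such share beside them. Of the counts of genes under all alternatives, 88 stayed within 1.5 times the reported count and 21 did not. With the mitochondrial limit removed or at 10%, with the highest Scrublet scores left out, and with intervals apart required, all 9 counts did. Single genes could still be lost. Inhba was not 2-fold apart in macrophages without the highest Scrublet scores, and Tgfb3 in fibroblasts did not pass with intervals apart required.
With the marker limits halved, 3 genes were 2-fold apart between the libraries in fibroblasts and 4 in neutrophils, and with them doubled 0 in endothelial cells. As a mean over cells of the CPM of each cell, 3 were apart in fibroblasts, 2 in endothelial cells and 0 in macrophages. The log2 difference in fibroblasts turned for Tgfb3 (-0.0079) and Bmp4 (0.95), the latter with single UMIs in shallow Combo cells weighing heavily. With Leiden clusters in place of gates 2 were apart in endothelial cells, and with a minimum of 50 UMIs 3 in fibroblasts and 0 in neutrophils. At 500 UMIs a cell, 1 thinned share had intervals apart between the libraries, in place of 7.
The following alternatives were chosen after seeing the data. With 1 tumor marker asked for, 1 gene was apart in tumor cells (Grem1), 3 in fibroblasts and 0 in endothelial cells. Without the 5 cells that held the most UMIs of a gene, 2 were apart in fibroblasts and 0 in endothelial cells, where none kept 20 UMIs, and 0 stood above tumor cells in fibroblasts and 1 in endothelial cells. With tumor cells of 10000 to 30000 UMIs, 1 was apart in tumor cells (Id1) and 1 stood above them in neutrophils (Id1). With neutrophils of at least 1000 UMIs, 2 were apart (Bmp4, Id1) and 0 stood above tumor cells. Causes were not tested. No paired analysis was possible because each group is 1 library.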
